A study of Mus musculus with 6 samples.

Results

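The 8 genes described here encode the cyclin-dependent kinase (CDK) inhibitors of the Cip/Kip family (Cdkn1a, Cdkn1b and Cdkn1c) and of the INK4 family (Cdkn2a, Cdkn2b, Cdkn2c and Cdkn2d), together with Cdkn3, a phosphatase that acts on CDKs. They were chosen by name and not by their values, through the symbols of their Ensembl identifiers, though earlier results of these data were known. They are 8 of the 48526 gene identifiers counted. The RNA came from mouse cells that the labels call KP and describe no further. Puromycin selection at 2 ug/ml had given 3 stable lines of them, whose pLKO.1 Tet-on vectors carry different short hairpins against Npm1 and make the hairpin when doxycycline is present. The treated group holds lines 3, 4 and 5, numbered after their hairpins, with doxycycline at 100 ng/ml, and the untreated group holds the same 3 lines without it. The vector and the puromycin selection are common to all 6 libraries. With no library among the 6 of a hairpin against another gene, the drug itself and the loss of Npm1 cannot be told apart. Each line gave 1 library per condition. Every SD, and every p-value from a test without line terms, therefore measures the spread between lines that carry different hairpins. Tests with line terms use the spread left after line and doxycycline are taken out. The labels do not say whether a line is a clone or a pool, or how long doxycycline was given.

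CDK inhibitors are brakes on the cell cycle. The INK4 proteins bind CDK4 and CDK6 and keep D-type cyclins from activating them, which leaves the retinoblastoma protein able to hold E2F factors, while the Cip/Kip proteins act on cyclin-CDK complexes more widely, above all on CDK2. The Cdkn2a gene is unusual in giving, besides the INK4 protein p16Ink4a, the unrelated protein p19Arf, which restrains MDM2 and so stabilises p53. Nucleophosmin, the nucleolar protein that Npm1 encodes, binds p19Arf in the nucleolus.

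Npm1 itself had 67.8, 245 and 400 CPM (counts scaled to the size of the library) in the doxycycline-treated libraries of lines 3, 4 and 5, against 2002, 1851 and 1924 CPM without doxycycline. The treated libraries lay far below the untreated ones in each line, and 3.39%, 13.2% and 20.8% of the untreated level remained in lines 3, 4 and 5. Npm1 fell by 3.02 on the log2 scale (SE 0.49, edgeR adjusted p = 0.0110), and missed the threshold when untreated line 3 (edgeR adjusted p = 0.0937) or both libraries of line 4 (0.177) were left out. Counts in genes ranged over libraries from 24391198 to 27341036, and the floor of 3 counts below which no level is read corresponds to 0.0991 to 0.137 CPM on this TMM-scaled scale. Counting intervals and floors cover counting error only.

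Cdkn2a is shown first by its structure, since it decides what its counts can say. The gene (ENSMUSG00000044303) lies on chromosome 4 of the mm10 build at 89274471 to 89294653, on the minus strand, and its annotation holds a p19Arf and a p16Ink4a transcript. The first exons of the transcripts, called 1-beta for p19Arf and 1-alpha for p16Ink4a, are 12141 bases apart, and both are spliced to the same exon 2. Of the 1172 exonic bases, 575 (49.1%) belong to both transcripts, 320 to the p19Arf transcript alone and 277 to the p16Ink4a transcript alone. The joins of each first exon to the shared exon are given below because they are where the transcripts part. Each runs 5′ to 3′ on the minus strand of chromosome 4, with 45 bases of the first exon in lower case and 45 bases of exon 2 (chr4:89276941-89276985) in capitals, read from the GENCODE transcripts of GRCm38, the same assembly as mm10.
first exon 1-beta (p19Arf, chr4:89294334-89294378): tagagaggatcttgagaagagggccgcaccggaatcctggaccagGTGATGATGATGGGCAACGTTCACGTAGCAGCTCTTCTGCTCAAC
first exon 1-alpha (p16Ink4a, chr4:89281986-89282030): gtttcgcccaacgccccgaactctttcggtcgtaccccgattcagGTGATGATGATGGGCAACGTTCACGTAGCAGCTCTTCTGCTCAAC
The capitals are identical, but exon 1-beta carries 190 coding bases and exon 1-alpha 126, a multiple of 3, so the shared exon is read in different frames. A read within the shared exons cannot be given to either transcript, and the deposited counts are per gene. The values of Cdkn2a below are therefore for p19Arf and p16Ink4a together. Cdkn2b, the gene of p15Ink4b, begins upstream on the same strand and ends 11646 bases before Cdkn2a starts.

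**Figure D1:**
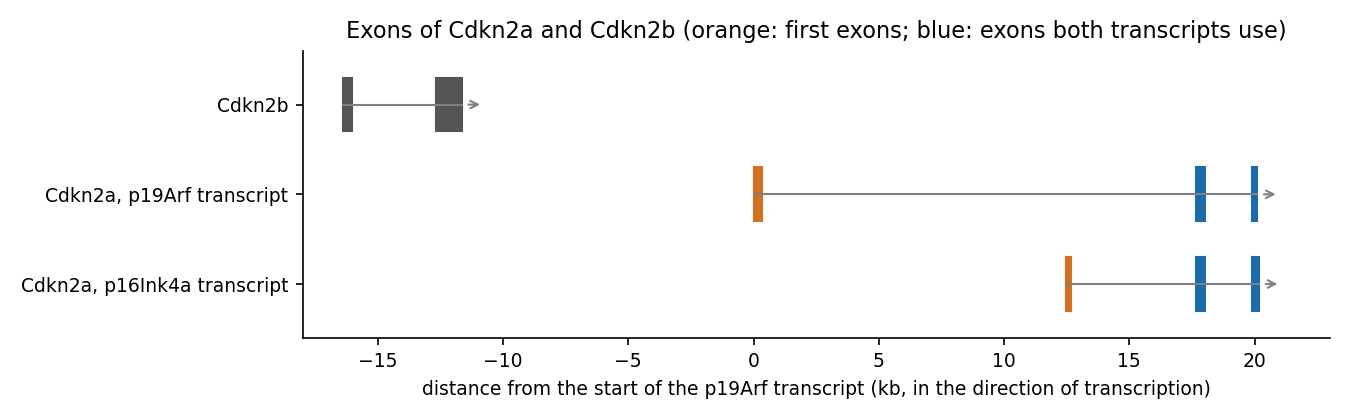
Exons of Cdkn2a and Cdkn2b as boxes along the horizontal axis, which gives the distance in kb from the start of the p19Arf transcript in the direction of transcription. Orange boxes are the first exons of the Cdkn2a transcripts, blue boxes the exons both use (575 bases in common), and grey boxes the exons of Cdkn2b.

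To set levels of different genes side by side, CPM were divided by the length in kb of the longest annotated transcript. On this scale Cdkn2a was the most abundant of the 8 genes in both conditions, at 577 ± 235 CPM per kb with doxycycline and 518 ± 3.37 CPM per kb without (SD, n = 3 lines each). Cdkn2b followed at 98.4 ± 41.5 CPM per kb with doxycycline and 105 ± 7.59 CPM per kb without, and Cdkn1b, the gene of p27Kip1, at 55.3 ± 1.04 CPM per kb with doxycycline and 51.4 ± 4.60 CPM per kb without. Cdkn2a thus held 83.5%, 83.2% and 82.4% of the summed CPM per kb of the INK4 genes in treated lines 3, 4 and 5. In the same lines untreated it held 77.6%, 78.5% and 78.2%. Those shares do not overlap between the conditions. The share moves with Cdkn2b and Cdkn2d as well as with Cdkn2a, and was not tested. Since the counts of Cdkn2a hold p19Arf too, it is not the share of p16Ink4a.

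Lower in the order, without doxycycline, came Cdkn2d at 39.1 ± 2.68, Cdkn1a at 22.6 ± 3.50 and Cdkn3 at 9.82 ± 2.05 CPM per kb, and the ranges of neighbouring genes over the 3 lines did not overlap at any step down to Cdkn2c and Cdkn1c. With doxycycline these 3 genes were no longer separable, since Cdkn2d at 16.5 ± 3.99, Cdkn3 at 13.4 ± 2.36 and Cdkn1a at 11.6 ± 7.33 CPM per kb overlapped in their ranges. Cdkn2c and Cdkn1c were scarce in every library. Cdkn2c had 2.12 ± 0.755 CPM per kb with doxycycline and 1.18 ± 0.380 without, and Cdkn1c had 0.591 ± 0.327 with doxycycline and 0.447 ± 0.192 without.

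All 8 genes were abundant enough to be tested for doxycycline against none in edgeR's quasi-likelihood test, whose p-values were adjusted over 14531 genes. At an adjusted p under 0.05, 2.28% of all genes tested were called, 0.963% as higher and 1.32% as lower with doxycycline. Among the CDK inhibitors 0 were called higher, 1 (Cdkn2d) was called lower and 7 did not pass. The median log2 fold change was 0.13 over the 8 genes and 0.0031 over all genes tested, with 5 members above 0 and 3 below. The treated and untreated libraries did not overlap for 1 of the 8 genes (12.5%), against 22.6% of all genes tested.

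**Figure D2:**
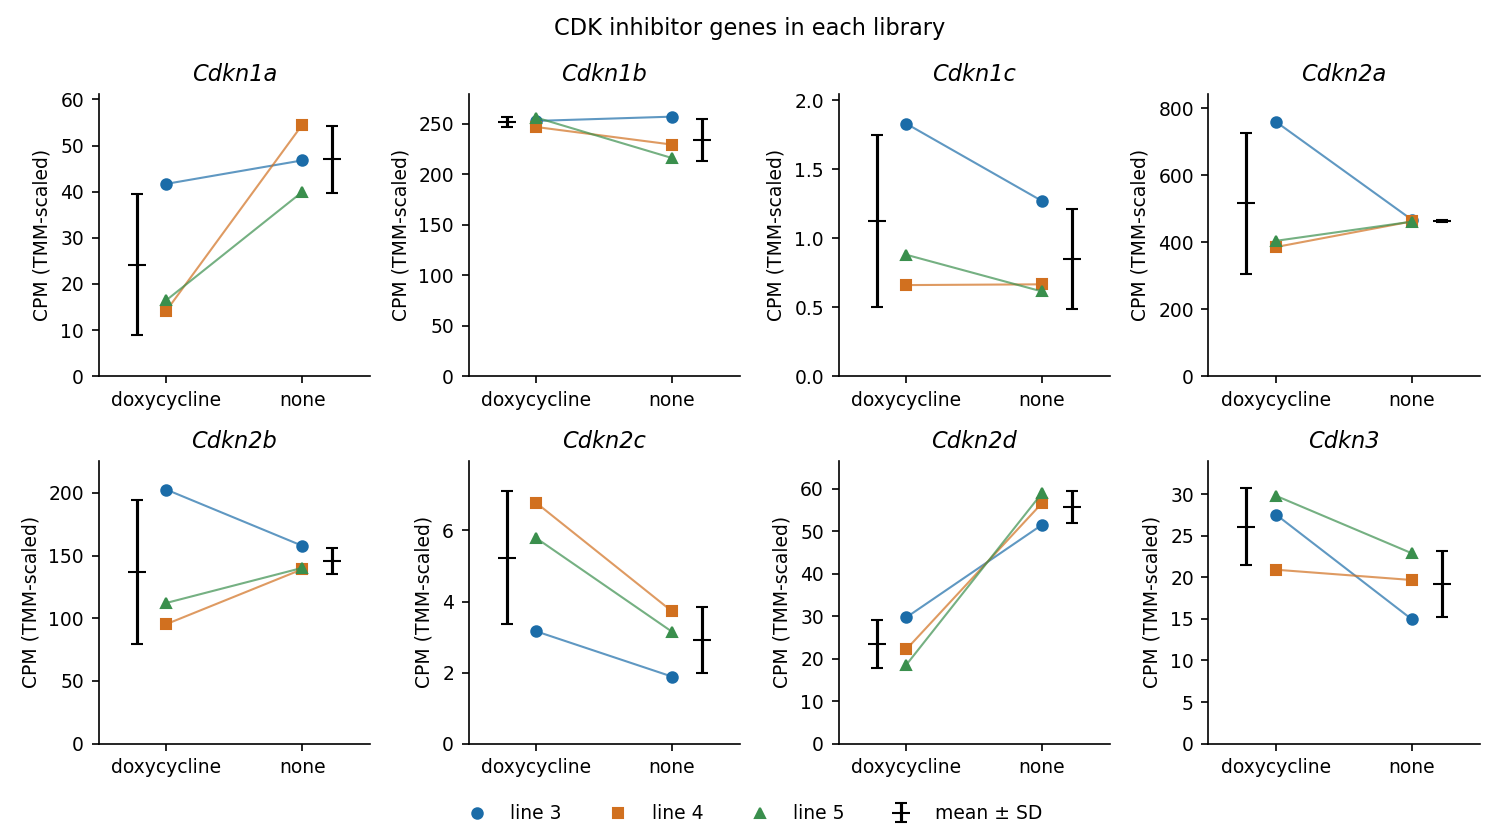
TMM-scaled CPM of each gene (vertical axes, each from 0) with doxycycline on the left and without on the right, and a coloured line joining the libraries of the same line. Black bars are the mean ± SD over the 3 lines. Cdkn2d is the gene whose treated and untreated libraries do not overlap, at 23.5 ± 5.68 against 55.7 ± 3.81 CPM.

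Cdkn2d (ENSMUSG00000096472), which encodes p19Ink4d, an INK4 protein distinct from p19Arf despite the similar name, lies on chromosome 9 at 21288410 to 21291407 on the minus strand. It had 29.7, 22.2 and 18.6 CPM in treated lines 3, 4 and 5, against 51.5, 56.6 and 58.9 CPM in the same lines untreated. Each treated library lay below all 3 untreated ones. Cdkn2d fell by 1.25 on the log2 scale (SE 0.17, 95% interval -1.63 to -0.86, edgeR adjusted p = 0.00469), to 42.2% of the untreated mean. The 2-sided exact permutation test over the 6 libraries gave p = 0.1, the smallest that 3 against 3 allows. In bulk RNA, fewer cells with the transcript and less transcript per cell cannot be told apart.

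Within lines the ratio of Cdkn2d, treated over untreated, was 0.577 in line 3 (95% exact counting interval 0.525 to 0.634), 0.392 in line 4 (0.357 to 0.430) and 0.315 in line 5 (0.284 to 0.349). These intervals, which cover counting error only, do not overlap each other. Their order is the opposite of that for Npm1, of which line 3 kept the least and line 5 the most. Each line gave 1 library per condition, and neither the order nor a relation to Npm1 was tested. With trends of transcript length and GC content taken out of each library, the ratios were 0.496, 0.430 and 0.349 in lines 3, 4 and 5. That kept the order but brought lines 3 and 4 closer, and these adjusted ratios carry no counting interval. Blocking on the line gave Cdkn2d an edgeR adjusted p of 0.0118, in a fit that called 1.67% of genes, and offsets for transcript length and GC content gave an edgeR adjusted p of 0.00267. DESeq2, which called 3.88% of genes, gave an adjusted p of 7.59e-08. The call was lost in 1 of 16 alternatives, when both libraries of line 4 were left out, with a log2 fold change of -1.20 and an edgeR adjusted p of 0.112.

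Since Cdkn2d was the CDK inhibitor that passed the test, the sequence before its RefSeq start is printed. It is the 250 bases upstream of the RefSeq start on the minus strand (chr9:21291210-21291459, GRCm38.p6), with capitals marking the GC box GGGCGG on either strand. The GENCODE annotation places the start of the gene further upstream, at 21291407. Most of the window, with all its GC boxes, therefore lies within the gene as GENCODE gives it.
Cdkn2d promoter: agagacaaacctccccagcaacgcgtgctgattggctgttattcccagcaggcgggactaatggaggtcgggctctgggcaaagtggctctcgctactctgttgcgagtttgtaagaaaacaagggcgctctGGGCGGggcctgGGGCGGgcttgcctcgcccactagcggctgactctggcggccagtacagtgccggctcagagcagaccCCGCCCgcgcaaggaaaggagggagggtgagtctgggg
This window held 3 GC boxes and no E-box, CACGTG on either strand. RefSeq windows were given for 7 of the 8 genes, 10 windows in all because some genes have several starts, and 6 of the 10 held a GC box, against 32.7% of 32851 windows of the same length. None of the 10 held the E-box, which 6.02% of all windows hold, and 7 held the CACCC box that KLF-type factors can bind, against 52.0% of all windows. These matches are of letters only.

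Cdkn2a had 759, 386 and 404 CPM in treated lines 3, 4 and 5, against 467, 462 and 461 CPM in the same lines untreated. The untreated libraries lay within a few CPM of each other (463 ± 3.01), while treated line 3 stood above all of them and treated lines 4 and 5 below. That closeness depends on the scaling: the untreated mean was 458 ± 7.23 CPM with raw gene totals and 457 ± 23.1 CPM with length and GC trends removed. The log2 fold change was 0.16 (SE 0.24, 95% interval -0.37 to 0.68) and did not pass (edgeR adjusted p = 0.806). The interval reaches from a loss to a gain, so neither direction is shown, and it does not show that the gene was unaltered. Without the treated library of line 3 the log2 fold change was -0.22 (edgeR adjusted p = 0.201), and without both libraries of line 3 it was again -0.22 (edgeR adjusted p = 0.251).

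Within lines, the ratio of Cdkn2a was 1.63 in line 3 (95% exact counting interval 1.59 to 1.66), 0.835 in line 4 (0.814 to 0.857) and 0.876 in line 5 (0.853 to 0.899). Line 3 and the other lines thus lay on opposite sides of 1 by more than counting error. In line 3, short transcripts as a class had higher ratios: the median log2 ratio was 0.39 for 512 genes with a longest transcript under 1 kb and -0.17 for 3893 genes over 4 kb, while the same medians were 0.01 and -0.04 in line 4 and 0.01 and 0.01 in line 5. The longest transcript of Cdkn2a has 895 bases. With length and GC trends taken out of each library, Cdkn2a had 629, 446 and 442 CPM in treated lines 3, 4 and 5, against 479, 457 and 433 CPM in the same lines untreated. The ratios were then 1.31 in line 3, 0.976 in line 4 and 1.02 in line 5, so that line 3 remained apart and the other lines lay near 1.

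Cdkn2b (ENSMUSG00000073802; chromosome 4, 89306299 to 89311039, minus strand), which TGF-beta signalling induces in many epithelial cells, had 203, 95.4 and 112 CPM in treated lines 3, 4 and 5, against 158, 139 and 140 CPM in the same lines untreated. As for its neighbour, treated line 3 was the highest of the 6 libraries and treated lines 4 and 5 the lowest. Its log2 fold change was -0.09 (SE 0.24, 95% interval -0.63 to 0.44) and did not pass (edgeR adjusted p = 0.899). Without the treated library of line 3 it was -0.48 with an edgeR adjusted p of 0.0317, in a fit that called 1551 genes against 332. The sign turned without treated line 4 (0.11), without treated line 5 (0.03) and without the pair of line 4 libraries (0.08). The ratios within lines were 1.28 in line 3 (95% exact counting interval 1.23 to 1.34), 0.686 in line 4 and 0.801 in line 5, and with the length and GC trend removed 1.10, 0.752 and 0.888.

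Most genes of the wider neighbourhood of Cdkn2a were given few or no counts. Of 22 protein-coding genes within 500 kb, among them the type I interferon genes Ifna1, Ifna4 and Ifna5, 16 had no counts in any library, and Dmrta1 and Ifne had 12 counts each over all 6 libraries. Ifnz and Gm13285 had 2 counts each. Reads aligned to several places, 31.4% to 37.8% of the reads of a library, were left out. A gene with close copies can therefore lack counts without being silent. Mtap, the gene of methylthioadenosine phosphorylase, often deleted together with CDKN2A in human tumours, lies 93390 bases away and was read at 269 ± 14.3 CPM with doxycycline and 240 ± 12.4 CPM without (SD, n = 3 lines each), a log2 fold change of 0.16 that did not pass (edgeR adjusted p = 0.561). The Cdkn2a and Cdkn2b genes and Mtap were thus all read in each of the 6 libraries.

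Cdkn2c (ENSMUSG00000028551; chromosome 4, 109660876 to 109667189, minus strand), the gene of p18Ink4c, had 3.16, 6.77 and 5.78 CPM in treated lines 3, 4 and 5, against 1.89, 3.72 and 3.15 CPM in the same lines untreated. The treated library was the higher in each line, but the groups overlapped, because line 3 had the lowest level in both conditions. On the log2 scale the fold change was 0.85 (SE 0.34, 95% interval 0.10 to 1.60, unadjusted p = 0.0303) and did not pass over all genes (edgeR adjusted p = 0.248). The ratios were 1.67, 1.82 and 1.84 in lines 3, 4 and 5, each with a counting interval above 1. Without the treated library of line 3 the log2 fold change was 1.11 and the edgeR adjusted p 0.0246, in the fit that called 1551 genes against 332.

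**Figure D3:**
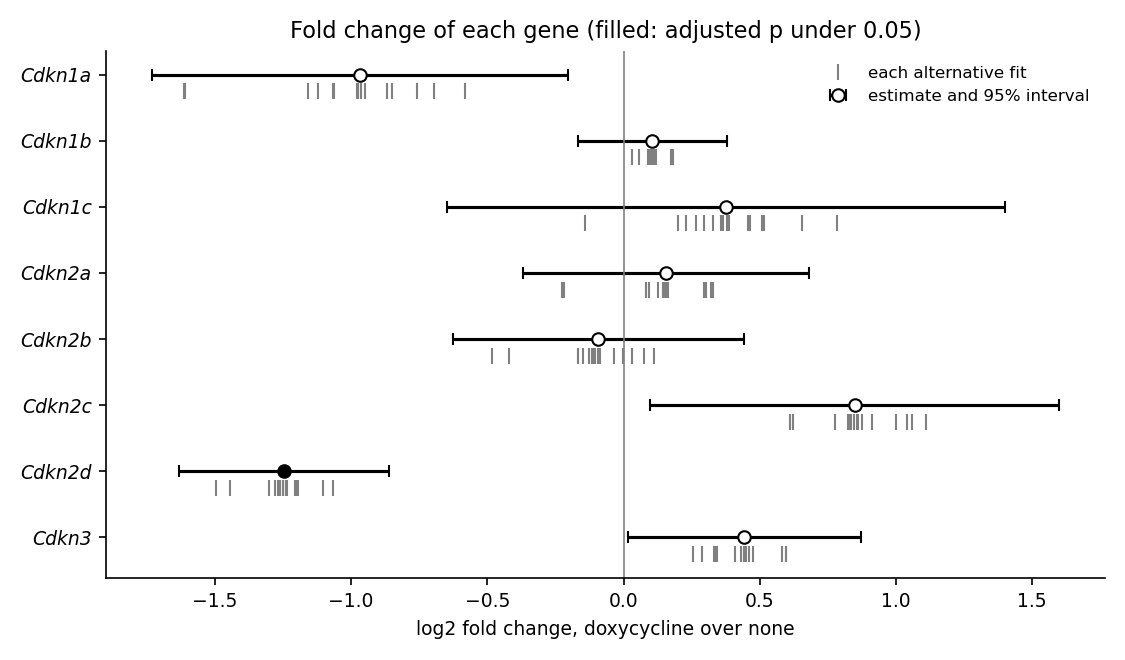
Log2 fold change of each gene, doxycycline over none (horizontal axis), with its 95% interval from edgeR as a black bar and the value under each of 16 alternative fits as grey ticks. The filled point, Cdkn2d at -1.25, is the one with an adjusted p under 0.05.

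Of the 3 Cip/Kip genes 0 passed in edgeR, with 1 (Cdkn1a) at an unadjusted p under 0.05, and DESeq2 called 0. Cdkn1a (ENSMUSG00000023067; chromosome 17, 29090976 to 29100727, plus strand) encodes p21Cip1, the CDK inhibitor that p53 induces. It had 41.7, 14.2 and 16.5 CPM in treated lines 3, 4 and 5, against 46.8, 54.5 and 39.9 CPM in the same lines untreated. Treated lines 4 and 5 lay far below every untreated library, while treated line 3 lay within the untreated range. The log2 fold change was -0.97 (SE 0.34, 95% interval -1.73 to -0.21, unadjusted p = 0.0178) and did not pass over all genes (edgeR adjusted p = 0.195).

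Lines 3 and 4 moved that value in opposite ways. Without the treated library of line 3 the log2 fold change of Cdkn1a was -1.61 with an edgeR adjusted p of 0.00026, and without both libraries of line 3 it was -1.61 with an edgeR adjusted p of 0.0114. Without both libraries of line 4 it was -0.58 (edgeR adjusted p = 0.723), and without treated line 4 it was -0.70 (edgeR adjusted p = 0.292). In that order these fits called 1551, 664, 62 and 311 genes, against 332 with all 6 libraries. The ratios within lines were 0.891 in line 3 (95% exact counting interval 0.817 to 0.972), 0.261 in line 4 (0.234 to 0.291) and 0.413 in line 5 (0.368 to 0.463). Testing all genes, with no filter on low counts, gave Cdkn1a an edgeR adjusted p of 7.93e-07, in a fit that called 1052 genes against 332. The log2 fold change hardly moved there (-0.98), while the SE went from 0.34 to 0.17. A gene on the opposite strand, AC167363.2, overlaps 7.68% of the exonic bases of Cdkn1a. Reads in that stretch cannot be given to either gene unless the counting used strand. The entry for ambiguous reads, left out here, held 2.93% to 3.26% of the reads of a library.

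Cdkn1b (ENSMUSG00000003031; chromosome 6, 134920401 to 134925513, plus strand), the gene of p27Kip1, had 253, 247 and 256 CPM in treated lines 3, 4 and 5, against 257, 229 and 216 CPM in the same lines untreated. It was the steadiest of the 8 genes with doxycycline, and the groups overlapped. The log2 fold change was 0.11 (SE 0.12, 95% interval -0.17 to 0.38, edgeR adjusted p = 0.734), an interval that leaves out changes beyond 1.30-fold upward. The p27 protein is set largely by its degradation, which these counts do not measure.

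Cdkn1c (ENSMUSG00000037664; chromosome 7, 143458339 to 143461050, minus strand), the imprinted gene of p57Kip2, had 40, 20 and 23 counts in treated lines 3, 4 and 5, against 33, 17 and 16 counts in the same lines untreated. Line 3 had the most counts in both conditions, and the value of 0.38 on the log2 scale (SE 0.46, edgeR adjusted p = 0.750) turned to -0.14 when treated line 3 was left out. The 95% interval, -0.65 to 1.40, holds 0 and leaves both directions possible. An antisense gene, Gm44732, overlaps 30.7% of its exonic bases.

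Cdkn3 (ENSMUSG00000037628; chromosome 14, 46760541 to 46771669, plus strand), whose product removes the activating phosphate from CDK2 and whose transcript is highest in dividing cells, had 27.5, 20.9 and 29.8 CPM in treated lines 3, 4 and 5, against 14.9, 19.7 and 22.9 CPM in the same lines untreated. The treated library was the higher in each line, but the groups overlapped. Its log2 fold change was 0.44 (SE 0.19, 95% interval 0.02 to 0.87, unadjusted p = 0.0436) and did not pass over all genes (edgeR adjusted p = 0.291). The ratio was 1.84 in line 3 (95% exact counting interval 1.62 to 2.10), 1.06 in line 4, where the interval held 1, and 1.30 in line 5. With length and GC trends removed it was 1.70, 0.983 and 1.23, so line 4 lay just below 1.

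The same direction in all 3 lines was seen for 4 of the 8 genes (Cdkn1a and Cdkn2d lower, Cdkn2c and Cdkn3 higher), against 38.6% of all genes tested. The other 4 had lines on both sides of 1. With length and GC trends removed, Cdkn3 no longer kept its direction (0.983 in line 4), while Cdkn1b (1.10, 1.04 and 1.11 in lines 3, 4 and 5) and Cdkn1c (1.31, 1.20 and 1.70) were above 1 in each line. In the test of the line terms, edgeR called 0 of 14531 genes (0%) and the smallest adjusted p of a CDK inhibitor was 0.868, while 667 genes, 4.59% of those tested, had an unadjusted p under 0.05. Among those were Cdkn2c (unadjusted p = 0.0182), Cdkn2b (0.0338) and Cdkn1c (0.0379). A DESeq2 likelihood ratio test called 11 genes. The test of the lines compares levels over both conditions, and whether the response to doxycycline differed between lines was not tested, since each line has 1 library per condition.

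**Figure D4:**
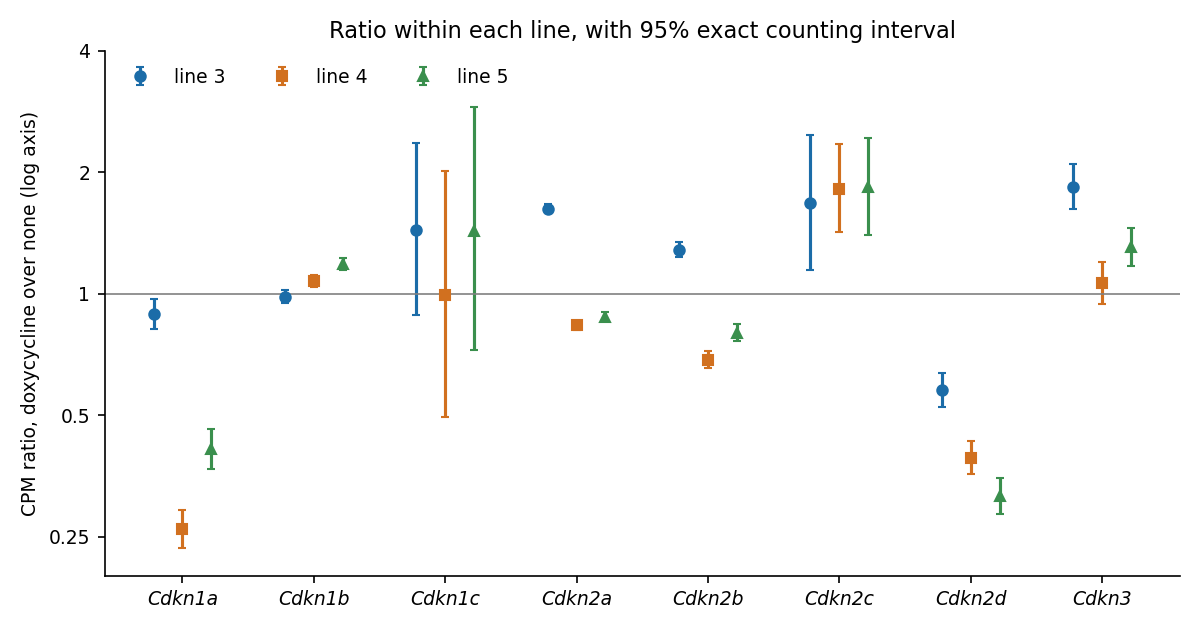
Ratio of CPM, doxycycline over none, in lines 3, 4 and 5 for each gene on a log axis, with the 95% exact counting interval as bars. Cdkn2d lies below 1 in each line (0.577, 0.392 and 0.315), while Cdkn2a and Cdkn2b lie above 1 in line 3 (1.63 and 1.28) and below 1 in lines 4 and 5.

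For each member with a mean of at least 5 CPM, the 2 named genes whose centred log2 CPM followed it most closely over the 6 libraries were found among 9811 genes, by the root mean square (RMS) difference. For Cdkn2a these were Tm7sf2 (0.0288) and the ribosomal protein gene Rpl19 (0.0485), and for Cdkn2b Map1lc3b (0.0371) and the ribosomal protein gene Rpl5 (0.0388). Rpl19 had 1854, 953 and 1026 CPM in treated lines 3, 4 and 5, against 1255, 1140 and 1198 CPM in the same lines untreated, the same high treated line 3 as for Cdkn2a. Ribosomal protein genes have near-identical copies in the genome, so their counts are uncertain. The CPM compared were not adjusted for length or GC content, and so keep the length trend of line 3 given above. Cdkn2d was followed by Fcna (0.164) and by Klf4 (0.189). Cdkn1a was followed by Aqp1 (0.148) and Tcf7 (0.163), Cdkn3 by Them6 (0.0863) and Psat1 (0.103), and Cdkn1b, itself nearly flat, by Atl3 (0.0301) and Fbxo3 (0.0320). The likeness, over 6 libraries, is a description.

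Around the inhibitors, the genes of their targets and regulators were read from lists. Each list is given with its edgeR calls, the genes with an edgeR unadjusted p under 0.05 and the calls of DESeq2. An edgeR unadjusted p under 0.05 was common: Cdkn3, at 0.0436, ranked 2179 by p among all 14531 genes tested. Cul4a, at 0.0554, ranked 2503. Of 15 CDK, cyclin and CDK-activating kinase genes 0 passed in either direction (5 at the unadjusted p, 0 by DESeq2), and 13 had a log2 fold change above 0 (median 0.27). Ccnd1, the D-type cyclin gene whose CDK partners the INK4 proteins inhibit, had 306 ± 29.8 CPM with doxycycline and 430 ± 73.7 CPM without (SD, n = 3 lines each; log2 fold change -0.49, edgeR adjusted p = 0.160). Cdk6 had 39.4 ± 7.97 CPM with doxycycline and 28.7 ± 1.20 CPM without (log2 fold change 0.46, edgeR adjusted p = 0.192). Of 13 pocket protein, E2F and DP genes 0 passed (0 at the unadjusted p, 0 by DESeq2; median 0.0038), with Rb1 at -0.36 and Rbl2 at -0.31. Of 17 genes of G2 and mitosis 0 passed (0 at the unadjusted p, 0 by DESeq2), 15 were above 0 (median 0.18), and Birc5 at 0.46 and Aurka at 0.34 had the smallest p.

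In the list of ARF partners and the MDM2-p53 axis, 1 of 8 passed, the targeted Npm1 (2 at the unadjusted p, 1 by DESeq2; median 0.01). Trp53, the gene of p53, had 10.8, 11.0 and 11.1 CPM in treated lines 3, 4 and 5, against 8.09, 8.35 and 7.60 CPM in the same lines untreated. These groups did not overlap, but its log2 fold change of 0.45 did not pass (edgeR adjusted p = 0.192). Mdm2, both the target of p19Arf and a gene that p53 induces, had 117 ± 15.9 CPM with doxycycline and 111 ± 7.08 CPM without (log2 fold change 0.07, edgeR adjusted p = 0.866), and Trip12, a ubiquitin ligase for ARF in human cells, had a log2 fold change of -0.19. Of 19 p53 target genes other than Cdkn1a 0 passed (1 at the unadjusted p, 1 by DESeq2; median -0.03). The gene that DESeq2 called was Trp53inp1, at 77.9 ± 13.8 CPM with doxycycline and 133 ± 36.3 CPM without (log2 fold change -0.78, edgeR adjusted p = 0.0812, or 0.0233 when blocked on the line), and Perp followed with a log2 fold change of -0.35.

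Among regulators of the INK4-ARF locus, 0 of 17 Polycomb genes passed (3 at the unadjusted p, 0 by DESeq2; median -0.10), with Cbx6 at -0.59 (edgeR adjusted p = 0.139) and Eed, a subunit of the PRC2 methyltransferase, at 0.40 (edgeR adjusted p = 0.142). Of 5 other regulators tested out of 7 listed, 0 passed (2 at the unadjusted p, 0 by DESeq2) and all 5 were below 0 (median -0.27), with Id1 at -0.52 (edgeR adjusted p = 0.164) and Kdm6b, a demethylase that counters Polycomb, at -0.36. Of 9 TGF-beta and MYC genes 0 passed (3 at the unadjusted p, 2 by DESeq2; median -0.19). Those DESeq2 called were Smad7 at -0.58 (edgeR adjusted p = 0.0930, DESeq2 adjusted p = 0.0357) and Tgfb1 at -0.60 (edgeR adjusted p = 0.0981, DESeq2 adjusted p = 0.0394).

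In the list of FOXO, AKT and KLF regulators of the Cip/Kip genes 1 of 7 passed (2 at the unadjusted p, 2 by DESeq2) and all 7 were below 0 (median -0.35). The gene that passed was Klf4, a transcription factor known to activate Cdkn1a, with 43.5, 26.4 and 23.9 CPM in treated lines 3, 4 and 5, against 60.5, 63.5 and 56.0 CPM in the same lines untreated. Every treated library lay below every untreated one, with treated line 3 the nearest to the untreated level. Klf4 fell by 0.94 on the log2 scale (SE 0.21, edgeR adjusted p = 0.0460). This call was lost in 8 of 16 alternatives: with offsets for length and GC content (log2 fold change -0.83, edgeR adjusted p = 0.0769), and without treated line 4, treated line 5, any 1 untreated library, line 4 or line 5 (edgeR adjusted p of 0.0911 to 0.425). Foxo1 had 7.51 ± 0.855 CPM with doxycycline and 12.1 ± 0.721 CPM without (log2 fold change -0.69, edgeR adjusted p = 0.0706, DESeq2 adjusted p = 0.0110).

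In a list of 11 genes drawn up for the ubiquitin ligases of p27 and p21, which also holds Fbxw7, 0 passed (4 at the unadjusted p, 1 by DESeq2, median 0.12). Skp2, which recognises p27, had 41.9, 58.3 and 99.3 CPM in treated lines 3, 4 and 5, against 36.5, 37.9 and 39.7 CPM in the same lines untreated (log2 fold change 0.81, edgeR adjusted p = 0.152). Those groups did not overlap, though treated line 3 lay close to the untreated level. Cul1, the scaffold of the same ligase, had 181 ± 8.04 CPM with doxycycline and 249 ± 12.3 CPM without (SD, n = 3 lines each; log2 fold change -0.46, edgeR adjusted p = 0.0812, DESeq2 adjusted p = 0.0157). Of 5 imprinted neighbours of Cdkn1c tested out of 6 listed, 0 passed (1 at the unadjusted p, 0 by DESeq2; median -0.0030), with Slc22a18 at -0.41 and Cd81 at -0.32.

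**Figure D5:**
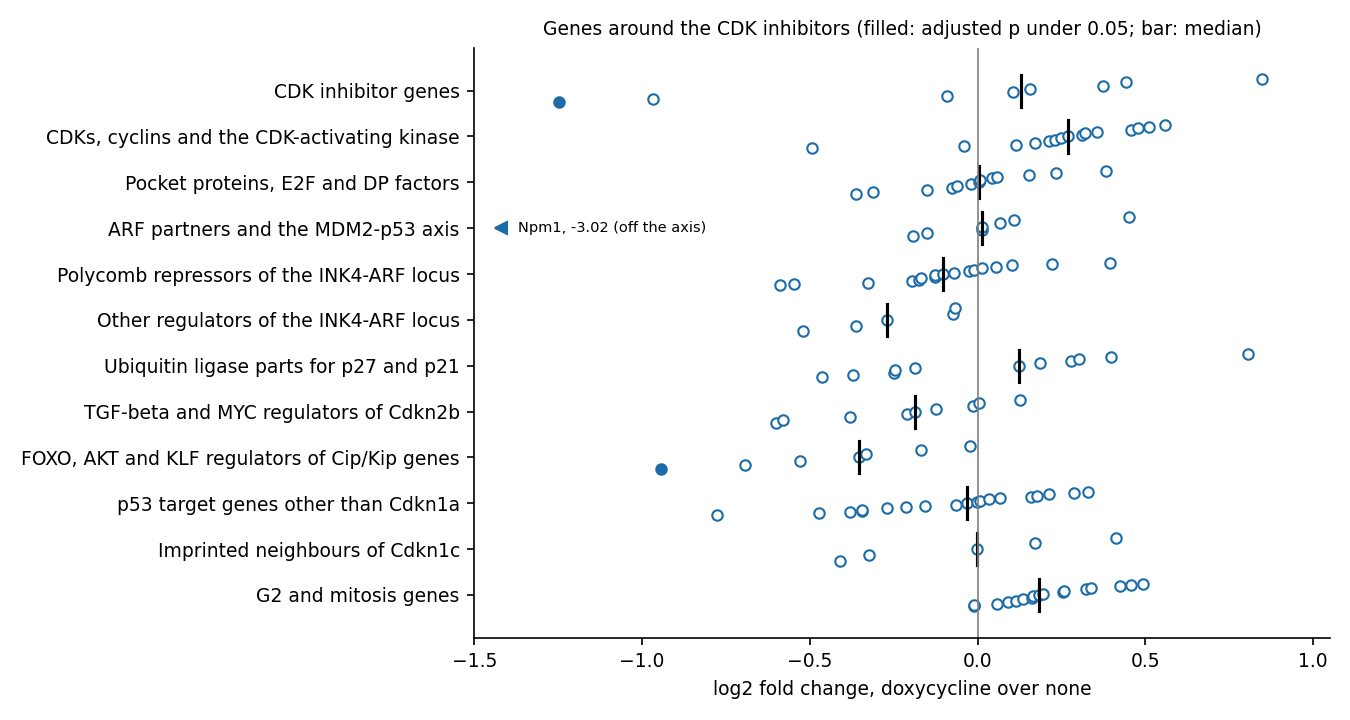
Log2 fold change, doxycycline over none (horizontal axis), of every tested gene of each list (points) with the list's median (black bar). Filled points passed at an adjusted p under 0.05: Cdkn2d at -1.25, Klf4 at -0.94 and Npm1, drawn at the left edge because its -3.02 is off the axis.

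Markers of other cell types moved with doxycycline beside these genes. Epithelial markers had the highest sums of the marker lists, at 11846 to 16540 CPM with doxycycline and 15463 to 17781 CPM without, and of their 8 genes Cldn4 passed, as lower, a call lost in 8 of 16 alternatives: with length and GC offsets, alone or with the line block, and without treated line 4, any 1 untreated library, line 3 or line 4 (edgeR adjusted p of up to 0.268). Of 13 macrophage markers tested 10 were higher with doxycycline and 3 did not pass, and Adgre1 averaged 10.4 CPM with doxycycline and was under the floor without, at 1, 0 and 1 counts in lines 3, 4 and 5, although the sum over the list was 351 to 518 CPM with doxycycline and 399 to 459 CPM without because Mrc1, at 256 ± 113 CPM with doxycycline and 383 ± 32.7 CPM without, made up a large part of it. Of 10 T and NK cell markers tested 9 were lower, their sum was 0.919 to 3.80 CPM with doxycycline and 14.1 to 19.6 CPM without, and Cd3d, Cd8b1, Nkg7 and Prf1 were at 0 counts in the treated libraries. Of 3 fibroblast markers tested Thy1 was lower (sums of 1.75 to 6.41 CPM with doxycycline and 6.22 to 7.47 CPM without), while B cell markers summed to 0.412 to 0.957 CPM with doxycycline and 0.392 to 0.770 CPM without, and endothelial markers to 0.916 to 1.95 CPM with doxycycline and 1.23 to 1.72 CPM without. The part of other cells in the levels of Cdkn2d, Klf4 or any other gene above was not tested.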

How the data were processed

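Total RNA of 6 libraries was sequenced, 3 with doxycycline and 3 without. The deposited values are whole-number counts of reads per gene, made by the authors, 1 file per library, not normalized. The submitters' processing notes name CASAVA, STAR, Picard, HTSeq, DESeq2, bedtools, R 3.3.0 and the build mm10, and annotation release and strand setting are not given in sources used here. The 5 entries that name no gene held 43.8% to 47.7% of reads, mostly reads aligned to several places, and were left out. Symbols for 48058 of 48526 identifiers, transcript lengths and overlaps came from the GENCODE M21 annotation, and promoter windows from RefSeq (GRCm38.p6).

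After filterByExpr and TMM scaling, the quasi-likelihood F test of edgeR 4.0.16 was run in R 4.3.3 on the counts, with Benjamini-Hochberg adjustment and a threshold of 0.05, a procedure first tested on simulated data. CPM use TMM-scaled library sizes, SEs come from the fold change and F, and intervals are at 95%. The biological coefficient of variation was 18.0%. Ratios within a line carry exact binomial intervals of the counts.

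The members, the lists and the alternatives were chosen with earlier results of these data known. Genes named were the members, Npm1, the passing genes of each list (at most 4) or otherwise up to 2 of smallest p, the protein-coding genes within 500 kb of Cdkn2a and the 2 genes most like each member; marker genes, and any gene beyond that, were named after their values were seen. Alternatives were a line block, RLE scaling, dropping the filter on low counts, offsets for length and GC content, both together, DESeq2 1.42.0, voom in limma 3.58.1, other thresholds, raw totals, and each library or line left out. The DESeq2 test of the lines and the length-adjusted CPM were added after seeing the data.

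The line numbers pair the libraries, because treated and untreated libraries of a number come from the same stable line. Deviations from the group means correlated by r = 0.0048 in line 3, 0.0674 in line 4 and 0.0276 in line 5, against -0.102 to 0.0670 for libraries of different lines, so the pairing rests on the design alone. No pair of libraries of a group agreed within sampling noise: chi-square per degree of freedom was 35.8 to 108 with doxycycline and 7.86 to 22.6 without.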

Additional observations from a re-analysis of the deposited data

Results flagged for a closer look

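Cdkn2a and Cdkn2b, the neighbours at the INK4-ARF locus, had ratios of treated over untreated CPM on opposite sides of 1 in different lines. For Cdkn2a the ratio was 1.63 in line 3, against 0.835 in line 4 and 0.876 in line 5. For Cdkn2b it was 1.28 in line 3, against 0.686 in line 4 and 0.801 in line 5. With length and GC trends removed the ratios of Cdkn2a were 1.31, 0.976 and 1.02 in lines 3, 4 and 5, so that line 5 moved to the same side of 1 as line 3, and those of Cdkn2b were 1.10, 0.752 and 0.888. The difference between lines was not tested, since each line has 1 library per condition.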

How the results depend on the processing

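The count of genes called, 332 (140 higher, 192 lower), was 1052 without the filter on low counts, 702 with DESeq2 (3.88% of the genes it gave an adjusted p), 121 at an adjusted p under 0.01 and 593 under 0.1; leaving out a library or a line gave 62 to 1551, the lowest without line 4 and the highest without treated line 3. The paired fit, with a replicate block for the line, gave 243 calls (1.67%), 103 of higher and 140 of lower genes, shared 226 with the 332, and changed the call of none of the 8 CDK inhibitors. Of the 8 CDK inhibitors, 1 was called in the reported fit and 2 without the filter (Cdkn1a besides Cdkn2d, edgeR adjusted p = 7.93e-07). Leaving out a library or line gave 0 to 4: 4 without treated line 3, 2 without line 3 and 0 without line 4. Over all genes those fits called 1551, 664 and 62, so the count of inhibitors called moved with the count over all genes. The log2 fold change of Npm1 ranged from -3.63 to -2.55 on leaving out a library or line, and missed the threshold without untreated line 3 (-2.99, edgeR adjusted p = 0.0937) and without line 4 (-3.07, edgeR adjusted p = 0.177). On leaving out a library or line the sign reversed for Cdkn1c (range -0.14 to 0.78), Cdkn2a (-0.22 to 0.33) and Cdkn2b (-0.48 to 0.11), as given above, and the calls of Klf4 and Cldn4 were each lost in 8 of 16 alternatives; the cause was not tested. Between lines, 240 genes were called without the filter and 11 with DESeq2, against 0. Cdkn1c and Cdkn2c had no more than 6.77 CPM in any library.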
